A study of Homo sapiens with 12 samples.

Results

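YAP and TEAD pathway genes were followed in human colorectal cancer cells given an siRNA against BRG1. The set comprised 10 genes named for their place in the pathway: the coactivators YAP1 and WWTR1, the DNA-binding factor TEAD1, and the known targets and regulators CCN1, CCN2, ANKRD1, LATS2, AJUBA, AMOTL1 and AMOTL2. Each was taken as the row of the deposited log2 table annotated to its symbol, or the brightest row where there were several. In all, 9 of the 10 genes were measured, each by 1 row, among 17687 named genes, and 1, AMOTL2, had no named row and was not analysed here. The 12 single-colour arrays covered 4 groups of 3: HCT 116 siBRG1, HCT 116 siControl, DLD1 siBRG1 and DLD1 siControl. HCT 116 and DLD1 are established colorectal carcinoma lines, and BRG1 is the ATPase of SWI/SNF chromatin remodelling complexes that SMARCA4 encodes. The siRNA sequences, their number and the time after transfection were not given in the sources used here, and no allele or other agent is named for any group. The labels do not state whether the replicates were grown and transfected separately. The p-values rest on the variation among the 3 arrays of each group, part or all of which may be technical. In the main fit this variation was pooled for each gene over the 4 groups. A p-value for either line thus also depends on the spread in the other line.

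YAP1 and its paralog WWTR1, also called TAZ, are transcriptional coactivators that do not bind DNA themselves and act mainly through TEAD factors. The Hippo kinases, ending in LATS1 and LATS2, phosphorylate YAP1 and WWTR1 and thereby keep them in the cytoplasm, so much of their control is on the protein and is not seen in RNA. In intestinal epithelium the pathway is known for its part in regeneration after injury. Several targets feed back on it: LATS2 is a kinase against YAP1, angiomotin-like proteins such as AMOTL1 and AMOTL2 bind YAP1 at cell junctions, and AJUBA is a LIM-domain scaffold protein that binds LATS kinases and restrains them. CCN1 and CCN2 encode secreted matrix-associated proteins, and ANKRD1 an ankyrin repeat protein of the nucleus and the sarcomere. All 3 are widely used as readouts of YAP1 and WWTR1 activity.

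TEAD factors recognise the letters GGAATG, or CATTCC on the other strand. Promoter windows of 250 bases ending at the annotated start were read from RefSeq (GRCh38.p14) for 8 of the 10 genes, 11 windows in all, with CCN1 and TEAD1 unmatched. Of these 8 genes, 5 had a match in at least 1 window: YAP1, CCN2, ANKRD1, AMOTL2 and AJUBA. By window, 5 of the 11 held a match. Over 35116 windows of the same length, 11.9% held at least 1 match, 0.94% held 2 or more and 0.0826% held 3 or more. The windows below belong to the secreted and nuclear readouts CCN2 and ANKRD1 and to AJUBA and LATS2, the members that passed the test in HCT 116. Capitals mark GGAATG, and all are read 5′ to 3′ from the minus strand.
CCN2, chr6:131951373-131951622: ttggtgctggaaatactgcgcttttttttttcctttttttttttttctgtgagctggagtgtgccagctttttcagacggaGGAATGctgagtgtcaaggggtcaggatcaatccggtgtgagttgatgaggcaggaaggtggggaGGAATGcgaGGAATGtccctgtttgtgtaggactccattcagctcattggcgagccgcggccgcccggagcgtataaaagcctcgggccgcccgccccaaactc
ANKRD1, chr10:90921088-90921337: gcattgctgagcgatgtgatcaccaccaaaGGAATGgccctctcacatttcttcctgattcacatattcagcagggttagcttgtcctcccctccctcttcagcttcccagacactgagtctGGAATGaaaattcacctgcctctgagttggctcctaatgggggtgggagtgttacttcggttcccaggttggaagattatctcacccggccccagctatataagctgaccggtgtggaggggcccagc
AJUBA, downstream start, chr14:22976843-22977092: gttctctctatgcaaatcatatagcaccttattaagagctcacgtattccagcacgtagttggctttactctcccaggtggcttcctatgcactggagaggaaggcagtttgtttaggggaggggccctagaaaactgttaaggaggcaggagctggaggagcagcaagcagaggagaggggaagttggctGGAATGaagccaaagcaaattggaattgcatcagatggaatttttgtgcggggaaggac
LATS2, chr13:21061587-21061836: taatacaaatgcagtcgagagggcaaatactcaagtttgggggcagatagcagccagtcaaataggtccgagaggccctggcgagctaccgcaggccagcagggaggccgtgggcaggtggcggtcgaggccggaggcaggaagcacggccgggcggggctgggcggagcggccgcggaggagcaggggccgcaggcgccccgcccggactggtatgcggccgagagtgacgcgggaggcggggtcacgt
Counting the base before the start as -1, CCN2 held 3 matches, with first bases at -169, -104 and -95. ANKRD1 held 2, at -220 and -128. In the downstream AJUBA window the match began at -59, and neither the upstream AJUBA window nor the LATS2 window held these letters. The AP-1 letters TGANTCA, which read the same on both strands and did not overlap a TEAD match, occurred in the ANKRD1 window alone among the 11 windows, as against 6.57% of all windows. A match describes letters and was not tested for binding.

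The siRNA reduced SMARCA4 RNA in both lines. In HCT 116 it lay at 6.78, 6.39 and 7.03 in siBRG1 arrays, against 10.12, 10.15 and 9.59 in siControl arrays (log2 values). In DLD1 it lay at 6.29, 6.55 and 6.31 in siBRG1 arrays, against 10.31, 9.95 and 10.29 in siControl arrays. The groups were far apart in both lines, with changes of -3.22 in HCT 116 (limma adjusted p = 1.14e-06) and -3.80 in DLD1 (4.56e-07). Array medians lay between 6.36 and 6.50, and arrays of 1 group correlated at 0.989 to 0.995 across genes. Of 11 measured colorectal epithelial markers EPCAM, KRT8, KRT18 and KRT19 averaged 14.43 to 16.76 in all groups, while VIL1, CDX1 and LGALS4 averaged 3.43 to 5.50 in every group. CDH1 and CDX2 were present in both lines and lower in HCT 116 siControl cells, at 9.65 and 9.36, than in DLD1 siControl cells, at 13.73 and 12.95. In all, 8 of the 11 markers passed the limma test between the siControl groups, all lower in HCT 116, as against 27.6% of all genes. Besides CDH1 and CDX2 these were EPCAM (-0.84), KRT8 (-0.63), KRT18 (-1.40), VIL1 (-0.90), CLDN7 (-0.79) and ELF3 (-1.84). No epithelial marker passed the test after siBRG1 in either line. The 20 measured markers of fibroblasts, immune and endothelial cells, which these lines should lack, had list medians of 3.34 to 4.45 over the groups, with COL1A2 highest at 8.14 to 8.62. Among these 20 CD68 alone passed after siBRG1, with a rise of 1.29 in HCT 116 (limma adjusted p = 0.0036), and its part in the results was not tested.

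In HCT 116, BRG1 siRNA raised LATS2 and AJUBA, the kinase and the scaffold that act on it, while the coactivators, TEAD1 and the secreted and nuclear readouts did not pass the test. Of the 9 measured members 2 were higher and 0 lower at a Benjamini-Hochberg adjusted p under 0.05 over all genes (limma, fitted to the 12 arrays), as against 2.82% of all genes called higher and 4.13% called lower. The median change of the members was 0.28, beside -0.01 over all genes.

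LATS2 lay at 9.85, 9.79 and 9.27 in HCT 116 siBRG1 arrays, against 8.23, 7.96 and 8.28 in HCT 116 siControl arrays (log2 values). Every siBRG1 array stood at least as far above the siControl arrays as these differed among themselves. The change was 1.48 on the log2 scale (SE 0.23, limma adjusted p = 0.00156), or 2.79-fold. AJUBA lay at 9.93, 9.78 and 9.66 in siBRG1 arrays, against 9.02, 8.61 and 8.39 in siControl arrays. Again the groups did not overlap, and the rise was 1.12 (SE 0.23, limma adjusted p = 0.00838), or 2.17-fold. Over all genes 11.9% had every HCT 116 siBRG1 array above every siControl array. Both calls stood under all 23 alternatives run for this contrast, with changes of 1.37 to 1.67 for LATS2 and 0.98 to 1.30 for AJUBA.

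The upstream factors in HCT 116 showed no call. YAP1 lay at 11.94, 11.99 and 12.09 in siBRG1 arrays, against 11.71, 12.01 and 12.10 in siControl arrays, with overlapping groups. Its change of 0.07 had a 95% interval of -0.31 to 0.44 (limma adjusted p = 0.892). TEAD1 lay at 10.89, 11.18 and 11.02 in siBRG1 arrays, against 11.00, 11.01 and 11.22 in siControl arrays, a change of -0.05 with an interval of -0.54 to 0.45. WWTR1 lay at 9.54, 8.87 and 9.17 in siBRG1 arrays, against 7.59, 9.29 and 8.78 in siControl arrays. The low siControl value belongs to replicate 1, the array farthest from its group over all genes (root mean square deviation 0.32, against 0.227 to 0.285 in the other 11). The WWTR1 change was 0.64 (SE 0.36, limma adjusted p = 0.353) and was 0.16 without that array. AMOTL1 lay at 8.81, 8.71 and 7.63 in siBRG1 arrays, against 8.47, 8.57 and 9.17 in siControl arrays, with overlap (log2 change -0.35, SE 0.28, limma adjusted p = 0.547).

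The usual readouts in HCT 116 were low in both groups. CCN2 lay at 6.62, 5.86 and 6.58 in siBRG1 arrays, against 5.51, 5.58 and 6.23 in siControl arrays. These groups overlapped, and the difference of 0.58 (interval 0.02 to 1.13) had an unadjusted p of 0.0435 and a limma adjusted p of 0.226. CCN1 lay at 6.70, 6.95 and 5.88 in siBRG1 arrays, against 6.27, 5.94 and 6.47 in siControl arrays, and its difference of 0.28 had a wide interval, -0.66 to 1.22. ANKRD1 lay at 2.84, 3.75 and 2.95 in siBRG1 arrays, against 2.85, 2.83 and 3.19 in siControl arrays, at or below the typical level of the markers of absent cell types. The table has no detection calls, so whether ANKRD1 RNA was present in HCT 116 cannot be told.

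**Figure D1:**
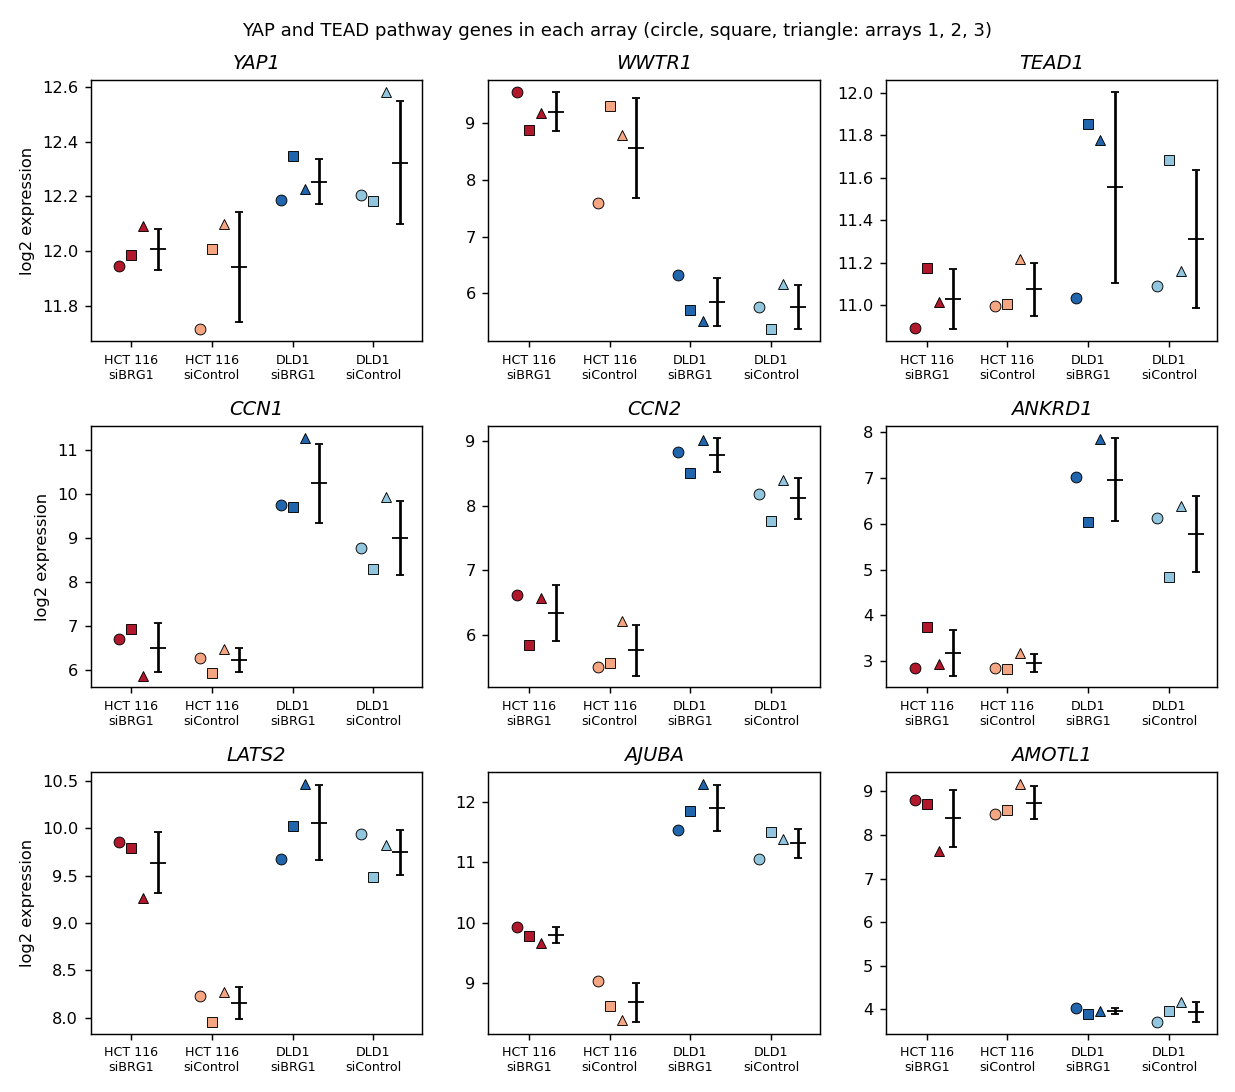
Log2 expression (vertical axis, a different range in each panel) of the 9 measured members in each array of HCT 116 siBRG1, HCT 116 siControl, DLD1 siBRG1 and DLD1 siControl; symbols mark the replicate number, and the bar beside each group is its mean ± SD of 3 arrays. LATS2 and AJUBA separate the HCT 116 groups without overlap, whereas AMOTL1 sits near 4 in DLD1 and ANKRD1 near 3 in HCT 116.

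In DLD1, none of the 9 members passed the test, as against 0.198% of all genes called in either direction (0.0678% higher and 0.13% lower, by limma). At an unadjusted p under 0.05 there were 4, CCN1, CCN2, ANKRD1 and AJUBA, all with higher values in siBRG1 cells, as against 10.5% of all genes below that p. The median change of the members was 0.31, beside 0.01 over all genes.

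CCN1 lay at 9.75, 9.69 and 11.27 in DLD1 siBRG1 arrays, against 8.76, 8.29 and 9.92 in DLD1 siControl arrays. Both groups were spread widely and overlapped, with replicate 3 highest in each. The difference was 1.25 (SE 0.44, limma adjusted p = 0.295), or 2.38-fold. ANKRD1 lay at 7.02, 6.04 and 7.86 in siBRG1 arrays, against 6.14, 4.84 and 6.39 in siControl arrays, with the same order of replicate numbers in both groups and a difference of 1.18 (SE 0.43, limma adjusted p = 0.317). CCN2 lay at 8.83, 8.50 and 9.01 in siBRG1 arrays, against 8.18, 7.76 and 8.39 in siControl arrays. Here every siBRG1 value exceeded every siControl value, as it did in 8.33% of all genes (7.19% had every siBRG1 value lower), and the difference was 0.67 (SE 0.26, limma adjusted p = 0.359). AJUBA lay at 11.55, 11.86 and 12.30 in siBRG1 arrays, against 11.05, 11.51 and 11.39 in siControl arrays, also without overlap (difference 0.59, SE 0.23, limma adjusted p = 0.355).

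Same-numbered DLD1 arrays deviated together over all genes, so the differences within a number were also read. For CCN1 they were 0.99, 1.41 and 1.35 in replicates 1, 2 and 3. For ANKRD1 they were 0.88, 1.19 and 1.47, for CCN2 0.65, 0.74 and 0.63, and for AJUBA 0.50, 0.35 and 0.91. These were the 4 members with 3 differences above 0, or 44.4% of the 9, as against 21.9% of all genes. With the replicate number as a block in DLD1, which was chosen after seeing the data, the limma adjusted p was 0.0503 for ANKRD1, 0.0538 for CCN1, 0.216 for AJUBA and 0.251 for CCN2. With the block in both lines it was 0.0564 for ANKRD1 and 0.0667 for CCN1. None of these passed, while 0.599% of all genes did in DLD1 with the block in DLD1 and 0.554% with it in both lines.

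**Figure D2:**
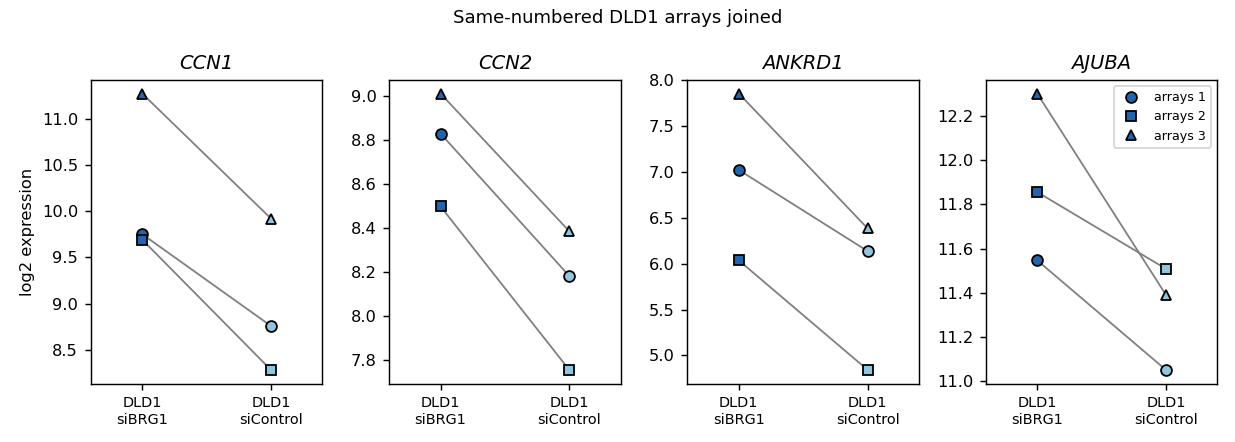
Log2 expression (vertical axis, a different range in each panel) of CCN1, CCN2, ANKRD1 and AJUBA in DLD1 siBRG1 and DLD1 siControl arrays, with a line joining arrays of the same replicate number. All 12 lines lie higher at their siBRG1 end, by 0.35 to 1.47. These are the 4 members with all 3 differences above 0, so this shared direction follows from the choice of genes.

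The other members in DLD1 had smaller differences. LATS2 lay at 9.68, 10.03 and 10.47 in siBRG1 arrays, against 9.94, 9.48 and 9.82 in siControl arrays, with overlapping groups and a difference of 0.31 (interval -0.18 to 0.80). YAP1 lay at 12.19, 12.35 and 12.23 in siBRG1 arrays, against 12.20, 12.18 and 12.58 in siControl arrays (difference -0.07, interval -0.45 to 0.31). TEAD1 lay at 11.04, 11.85 and 11.78 in siBRG1 arrays, against 11.09, 11.69 and 11.16 in siControl arrays (difference 0.24, interval -0.25 to 0.73). Groups overlapped for both of these upstream factors. WWTR1 lay between 5.51 and 6.32 in siBRG1 arrays and between 5.37 and 6.16 in siControl arrays. AMOTL1 lay between 3.88 and 4.04 in siBRG1 arrays and between 3.71 and 4.16 in siControl arrays, at the level of markers of absent cell types.

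**Figure D3:**
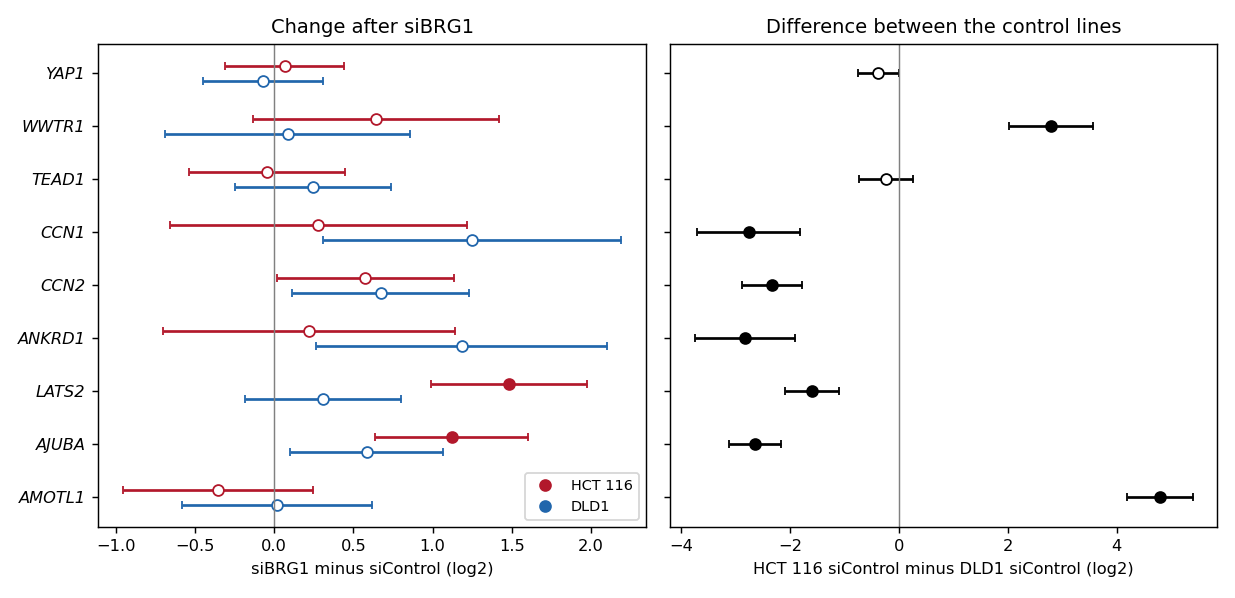
Left, change after siBRG1 (log2, siBRG1 minus siControl) of the 9 members in HCT 116 and DLD1; right, HCT 116 siControl minus DLD1 siControl (log2). Points are limma estimates with 95% intervals, filled where the adjusted p was under 0.05; on the left LATS2 and AJUBA in HCT 116 are filled, and on the right 7 of 9 members are, from -2.83 for ANKRD1 to 4.80 for AMOTL1.

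The changes of the lines were then set against each other. For LATS2 the change was 1.48 in HCT 116 and 0.31 in DLD1, a difference of 1.17 (SE 0.33) with an unadjusted p of 0.00275 and a limma adjusted p of 0.192. For AJUBA the difference was 0.54 (SE 0.32, limma adjusted p = 0.71), for CCN1 -0.97 (SE 0.62, limma adjusted p = 0.749) and for ANKRD1 -0.96 (SE 0.61, limma adjusted p = 0.74). None of the 9 members passed this test, which 0.334% of all genes did (0.158% higher and 0.175% lower), and LATS2 was the 1 member at an unadjusted p under 0.05, a p that 8.99% of all genes reached, so this count of 1 in 9 is near the background. A different response of the lines was thus not shown for any member, although the calls within single lines were both in HCT 116.

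Averaged over both lines, 3 members were higher after siBRG1 and 0 lower, as against 4.01% of all genes higher and 4.68% lower (8.68% in all). These were LATS2 (0.90, SE 0.16, limma adjusted p = 0.00438), AJUBA (0.85, SE 0.16, limma adjusted p = 0.00504) and CCN2 (0.62, SE 0.18, limma adjusted p = 0.0488). With the replicate number as a block in both lines the count was 5, adding ANKRD1 (limma adjusted p = 0.0188) and CCN1 (0.0235), as against 6.94% of all genes higher and 7.06% lower (14% in all). Most of these 2 averages came from DLD1, with changes of 1.18 for ANKRD1 and 1.25 for CCN1. In HCT 116 the changes were 0.22 and 0.28. With the block in DLD1 alone the count was again 5, as against 5.25% higher and 5.74% lower (11% in all). The CCN2 call was lost under 13 of 22 alternatives, its adjusted p ranging from 0.0135 to 0.132. Leaving out any of 9 single arrays was enough, namely all but HCT 116 siBRG1 replicate 2, HCT 116 siControl replicate 3 and DLD1 siBRG1 replicate 2.

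Between the lines without BRG1 knockdown 7 of the 9 members differed. In HCT 116 siControl cells 2 members were higher and 5 lower than in DLD1 siControl cells, as against 13.6% and 14% of all genes (27.6% in all). All 3 readouts and both AJUBA and LATS2 were on the lower side, WWTR1 and AMOTL1 on the higher.

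CCN1 averaged 6.23 ± 0.27 in HCT 116 siControl and 8.99 ± 0.84 in DLD1 siControl cells (SD, n = 3 each; difference -2.76, SE 0.44, limma adjusted p = 1.85e-04). CCN2 averaged 5.77 ± 0.39 in HCT 116 siControl and 8.11 ± 0.32 in DLD1 siControl cells, a difference of -2.33 (SE 0.26). The HCT 116 mean of CCN2 lay above the list medians of the markers of absent cell types, but below VWF among them (5.98). ANKRD1 averaged 2.96 ± 0.20 in HCT 116 siControl and 5.79 ± 0.83 in DLD1 siControl cells, a difference of -2.83 whose size is uncertain because the HCT 116 values lie at the level of markers of absent cell types. AJUBA averaged 8.67 ± 0.32 in HCT 116 siControl and 11.32 ± 0.24 in DLD1 siControl cells, a difference of -2.64 (SE 0.23). LATS2 averaged 8.16 ± 0.17 in HCT 116 siControl and 9.75 ± 0.24 in DLD1 siControl cells, a difference of -1.59 (SE 0.23). For each of these 5 genes all HCT 116 siControl arrays lay below all DLD1 siControl arrays, as in 19.7% of all genes.

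Of the coactivators WWTR1 alone passed. WWTR1 averaged 8.55 ± 0.87 in HCT 116 siControl and 5.76 ± 0.39 in DLD1 siControl cells (difference 2.79, SE 0.36, limma adjusted p = 2.59e-05), or 6.91-fold, and every HCT 116 array was higher, as in 20.3% of all genes. The DLD1 mean of WWTR1 lay above the list medians of the markers of absent cell types. It was below VWF among them (5.93 in DLD1 siControl), so the size of the fold is uncertain. YAP1 averaged 11.94 ± 0.20 in HCT 116 siControl and 12.32 ± 0.23 in DLD1 siControl cells, and its difference of -0.38 (SE 0.18) did not pass (limma adjusted p = 0.131). TEAD1 averaged 11.08 ± 0.13 in HCT 116 siControl and 11.31 ± 0.33 in DLD1 siControl cells, with overlapping arrays (limma adjusted p = 0.519). AMOTL1 showed the largest difference among the members, 8.74 ± 0.38 in HCT 116 siControl and 3.94 ± 0.22 in DLD1 siControl cells (4.80, SE 0.28, limma adjusted p = 3.70e-09), again with the lower line at the level of markers of absent cell types.

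Ordering the 4 groups by mean placed DLD1 siBRG1 highest for CCN1, CCN2, ANKRD1, AJUBA, LATS2 and TEAD1. For CCN1, CCN2, ANKRD1 and AJUBA the order ran from DLD1 siBRG1 through DLD1 siControl and HCT 116 siBRG1 to HCT 116 siControl, and the arrays of the middle pair did not overlap. AJUBA alone had no overlap between any neighbouring groups. LATS2 had the same order, but its HCT 116 siBRG1 arrays, up to 9.85, reached into the DLD1 siControl range of 9.48 to 9.94, and only HCT 116 siControl stood apart. YAP1 had both DLD1 groups above both HCT 116 groups without overlap between the lines. WWTR1 and AMOTL1 ran the other way, with both HCT 116 groups above both DLD1 groups and each line's own groups overlapping.

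Genes around the members were read in 6 lists holding 105 further measured genes. In HCT 116, 15 of the 105 passed, 9 higher and 6 lower, or 14.3%, as against 6.95% of all genes. The median change of the 105 genes was 0.04. Counts within a list also include its members of the set. PTPN14, FHL2, TEAD4 and VGLL3 each stand in more than a single list. In DLD1 none passed, as against 0.198% of all genes. An unadjusted p under 0.05 was reached by 15 of the 105, as against 10.5% of all genes.

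Of 10 TEAD and VGLL family genes, coactivators included, TEAD2 alone passed in HCT 116 (10% called, as against 6.95% of all genes). It lay at 7.61, 7.86 and 7.32 in siBRG1 arrays, against 8.78, 8.66 and 8.72 in siControl arrays, a change of -1.12 (SE 0.24, limma adjusted p = 0.0106) that missed the threshold without siBRG1 replicate 3 (limma adjusted p = 0.0553). TEAD3 and TEAD4, its paralogs, had changes of -0.16 and -0.08 in HCT 116 and of 0.15 and -0.40 in DLD1. The VGLL genes encode cofactors that bind TEAD factors, some in competition with YAP1. VGLL4 had changes of 0.21 in HCT 116 and -0.60 in DLD1, and VGLL3 of 0.46 and 0.72. VGLL1 had changes of -0.10 and -0.11 and VGLL2 of -0.02 and 0.20, with VGLL2 at 3.26 to 4.13 in all arrays and VGLL1 at 2.75 to 3.76 in HCT 116 arrays, near the level of markers of absent cell types. The list median was -0.03 in HCT 116 and 0.01 in DLD1.

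Hippo kinases and scaffolds upstream of YAP1 mostly did not pass. Of 26 measured, LATS2 alone passed in HCT 116 (3.85% called, as against 6.95% of all genes). The list median was 0.09 in either line. The kinase gene LATS1 had a change of 0.55 in HCT 116 (SE 0.21, limma adjusted p = 0.152) and TAOK3, a kinase upstream of the pathway, one of 0.56 (SE 0.25, limma adjusted p = 0.221). The largest changes in DLD1 were those of TAOK2 (0.55) and the scaffold gene WWC2 (0.47), neither of which passed.

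Among 15 measured YAP1-binding and junction genes 3 rose and 1 fell in HCT 116 (26.7% called, as against 6.95% of all genes). The list median was -0.01. Besides AJUBA, PTPN14, a phosphatase that binds YAP1, rose by 0.87 (SE 0.23, limma adjusted p = 0.0353) and SFN, an adaptor that binds phosphorylated proteins, by 0.75 (SE 0.17, limma adjusted p = 0.0171). CTNNA1, the α-catenin of adherens junctions, fell by 0.82 (SE 0.17, limma adjusted p = 0.00985). The PTPN14 call was lost without any 1 of 5 HCT 116 arrays, all but siBRG1 replicate 3 (adjusted p up to 0.114), and the SFN call without replicate 2 or 3 of either HCT 116 group (up to 0.0692). In DLD1 0 of 15 passed, and AJUBA was the 1 gene at an unadjusted p under 0.05, a p that 10.5% of all genes reached. Outside the member set the largest DLD1 changes of this list were those of the LIM-domain gene LIMD1 (-0.61) and YWHAG (-0.35).

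The list of 37 other measured YAP and TEAD targets moved in both directions in HCT 116, with 5 higher and 3 lower. Of this list 21.6% was called, as against 6.95% of all genes, and its median was 0.12. FHL2, a LIM-domain cofactor, lay at 12.61, 13.10 and 12.95 in siBRG1 arrays, against 10.76, 11.91 and 11.94 in siControl arrays, a rise of 1.35 (SE 0.29, limma adjusted p = 0.0132). The MAP kinase phosphatase gene DUSP1 rose by 1.05 (SE 0.30, limma adjusted p = 0.0468), a call lost without any 1 of the 6 HCT 116 arrays or the 3 DLD1 siControl arrays (adjusted p up to 0.173). The FHL2 call was lost without siBRG1 replicate 2 or 3 (0.0571 and 0.0501). Without siControl replicate 1, which held the lowest FHL2 value, the change was 0.96 and the call stood. BIRC5, an inhibitor of apoptosis and a mitotic gene, fell by 1.72 (SE 0.24, limma adjusted p = 8.89e-04). PHLDB2, which encodes a cortical protein near focal adhesions, lay at 11.14, 11.23 and 10.98 in siBRG1 arrays, against 12.84, 12.64 and 12.96 in siControl arrays, without overlap (log2 change -1.70, SE 0.21, limma adjusted p = 3.65e-04). In DLD1 0 of 37 passed, and 6 had an unadjusted p under 0.05, a p that 10.5% of all genes reached. The list median there was 0.09, and the largest changes were those of NT5E (-1.06) and BIRC5 (-0.86).

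AP-1 subunits, which often bind beside TEAD factors at enhancers, included 2 that rose in HCT 116 and 0 that fell, of 10 measured. This was 20% called, as against 6.95% of all genes, with a list median of 0.44. JUN rose by 3.98 (SE 0.31, limma adjusted p = 5.15e-06) and JUNB by 0.87 (SE 0.19, limma adjusted p = 0.0127), and the JUNB call was lost without siControl replicate 2 (0.0578). In DLD1 JUN had a change of 0.98 and FOSL1 one of -0.83, and neither passed. SRF and its cofactors MRTF form a pathway that answers to actin and shares targets with YAP1. Of its 17 measured genes FHL2 and ACTA2 (0.89, SE 0.21, limma adjusted p = 0.0204) rose in HCT 116. CNN2, a calponin, fell (-1.12, SE 0.22, limma adjusted p = 0.00739), so 17.6% were called, as against 6.95% of all genes. The ACTA2 call was lost without siBRG1 replicate 1 or siControl replicate 1 or 3 (up to 0.0733). The list median was -0.07 in HCT 116 and 0.04 in DLD1, where MYL9 (1.12) and TAGLN (0.70) had the largest changes and did not pass. In HCT 116 MYL9 and TAGLN had changes of the other sign, -1.06 and -0.57, which did not pass either. TAGLN averaged 4.16 in DLD1 siControl arrays, near the level of markers of absent cell types.

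**Figure D4:**
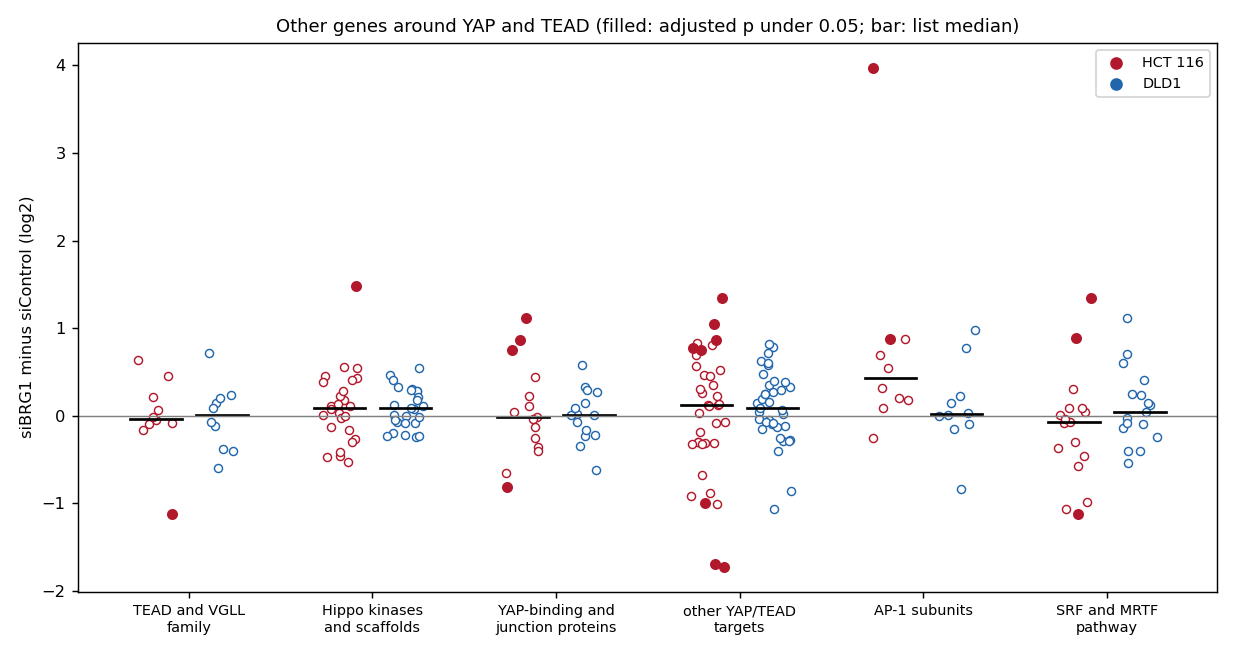
Change after siBRG1 (log2, siBRG1 minus siControl) of each measured gene of the 6 lists in HCT 116 and DLD1; filled points had a limma adjusted p under 0.05, and bars are list medians. Filled points are confined to HCT 116 in these 6 lists, where JUN stands highest at 3.98 and BIRC5 lowest at -1.72.

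The genes whose pattern was most like that of CCN1 and CCN2 were found by the root mean square difference over the 12 arrays, after each gene's mean over the 6 arrays of a line had been subtracted. For CCN1 the nearest 5 of 17686 genes were PRICKLE1 (0.31), CGN (0.31), ANKRD1 (0.35), SIRT2 (0.36) and TXNIP (0.37), beside a median over genes of 0.76. ANKRD1 was at rank 3 and CCN2 at rank 475. The nearest genes to CCN2 were ZNF446 (0.20), HEG1 (0.20), MCRIP1 (0.21), ZFYVE1 (0.21) and DLGAP3 (0.22), beside a median of 0.50. No other member was among them. Measured from CCN2, the readouts ANKRD1 and CCN1 were at ranks 12213 and 13123, with differences of 0.56 and 0.58, above that median. The differences were not scaled, so a gene that moved more than CCN2 is ranked lower even with the same order of arrays. YAP1, with changes of 0.07 in HCT 116 and -0.07 in DLD1, was nearer to CCN2, at rank 2981 (0.41). These ranks thus do not tell whether the readouts rise and fall together. Neither CCN1 nor CCN2 passed in either line, so these patterns include the spread between arrays.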

How the data were processed

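Single-colour Affymetrix arrays, 1 per sample, were grouped by the line and siRNA in their titles; 4 HCT 116 source names carry other numbers and were not used. Values were deposited as log2 expression. The submitters' processing notes name RMA and Affymetrix Power Tools, without versions. On each array 94 to 112 values lie above 16, which a 16-bit scanner cannot give directly, so some further scaling is not described. There are no detection calls, and precision is limited by having 3 arrays per group. Of 21448 features 17709 had 1 gene symbol, 0 had several and 3739 had none; for 20 genes the brightest of several rows was kept.

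Group means were fitted with limma 3.58.1 in R 4.3.3 (lmFit, then eBayes; residual degrees of freedom 8, prior 6.66). The effect of siBRG1 over siControl was estimated per line, averaged, and compared as HCT 116 minus DLD1; the siControl groups were compared likewise. P-values are 2-sided and adjusted by Benjamini-Hochberg over all 17687 genes. Intervals use the moderated standard error. The steps were tested on simulated data. Members, lists and rules were chosen with earlier results of these data known. Named were all members; per list and line, up to 4 called genes or otherwise the 2 largest changes; all TEAD and VGLL genes; and the 5 genes nearest to CCN1 and CCN2. CD68 and the epithelial markers were named after their values were seen.

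Titles number the arrays 1 to 3. Deviations from group means of same-numbered siBRG1 and siControl arrays correlated across genes at 0.49, 0.46 and 0.29 in DLD1, all above 0.1, and at 0.30, 0.15 and 0.03 in HCT 116. All same-number values exceeded 0.1 in DLD1 only, so the numbers were read as pairs there. Pairing in HCT 116 stayed undecided, where differently numbered arrays correlated at -0.28 to 0.23. No label states pairing in either line. Fits with the number as a block in both lines and in DLD1 only were alternatives. Promoter letters were searched on both strands of RefSeq windows. Scan dates were not in the sources used here.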

Additional observations from a re-analysis of the deposited data

Results flagged for a closer look

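The change after siBRG1 differed between the lines for 2 of the named genes outside the member set, by the test of the difference itself. JUN changed by 3.98 in HCT 116 and 0.98 in DLD1, a difference of 2.99 (SE 0.44, limma adjusted p = 0.00777; 0.002 to 0.0294 over 22 alternatives). PHLDB2 changed by -1.70 in HCT 116 and 0.38 in DLD1, a difference of -2.08 (SE 0.30, limma adjusted p = 0.00777; 0.00208 to 0.0294 over 22 alternatives). No member of the set passed this test. Groups of 3 arrays are too small for the search for single outlying samples, which was not made.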

How the results depend on the processing

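Of 24 alternatives, 12 left out 1 array each. The counts of members called stayed at 2 in HCT 116, 0 in DLD1 and 0 for the difference between lines under every alternative run for them. For the average of the lines the count was 3 and moved to 5 with the replicate block in both lines and to 5 with it in DLD1 only; leaving out 1 array gave 2 to 3. For the control lines it was 7, and 5 with genes above the median level, a filter that removes ANKRD1 and AMOTL1. The block changed no other member's call. List genes called in HCT 116 numbered 15, against 24 with array weights, 6 at an adjusted p under 0.01 and 9 to 16 without 1 array. The block in both lines also added calls in HCT 116. LIMD1, MOB1A, THBS1 and TAGLN2 were then called lower, and GADD45A, ATF3 and FGF2 higher. In DLD1 the called list genes numbered 0, and 0 to 1 without 1 array. Of the 45 member changes 34 kept their direction under every alternative. The 11 that reversed were called under no alternative. With centring on array medians the reversed values were 0.0058 for YAP1 (average), 0.027 for TEAD1 in HCT 116, 0.035 for CCN2 (difference), -0.041 for AMOTL1 in DLD1 and 0.057 for VGLL2 in HCT 116. Quantile normalization gave 0.048 for CCN2 (difference). Array weights gave -0.058 for WWTR1 and -0.030 for AMOTL1 in DLD1, and 0.053 for VGLL2 in HCT 116. Without 1 array, ranges crossed 0 for YAP1 in HCT 116 (-0.047 to 0.15), in DLD1 (-0.14 to 0.060) and on average (-0.059 to 0.063), WWTR1 in DLD1 (-0.15 to 0.28), TEAD1 in HCT 116 (-0.12 to 0.026), CCN2 for the difference (-0.24 to 0.15), ANKRD1 in HCT 116 (-0.062 to 0.39), AMOTL1 in HCT 116 (-0.57 to 0.023), in DLD1 (-0.097 to 0.13), for the difference (-0.58 to 0.0057) and on average (-0.27 to 0.021), TEAD4 in HCT 116 (-0.45 to 0.11), VGLL1 in HCT 116 (-0.34 to 0.16) and DLD1 (-0.88 to 0.70) and VGLL2 in HCT 116 (-0.16 to 0.19). The causes were not tested. Values near the level of markers of absent cell types limit ANKRD1 in HCT 116, AMOTL1 in DLD1, VGLL1 in HCT 116, VGLL2 and TAGLN in DLD1.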
